A study of Mus musculus with 6 samples.

Results

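Molecular chaperones of the cytosol and the mitochondria, 76 genes of the 14005 listed, were described in mouse bone marrow-derived macrophages. They were chosen by name: 64 start with Hsp, Dnaja, Dnajb, Dnajc or Bag and a digit, and 12 are named singly (Cct2, Cct3, Cct4, Cct5, Cct7, Cct8, Tcp1, Stip1, Chordc1, Ahsa1, Fkbp4 and Hsf1). Perlecan (Hspg2), the main chaperones of the endoplasmic reticulum (Hspa5, Hsp90b1, Dnajb9, Dnajb11 and Dnajc3) and names that hold "-ps" were left out. The rule uses names alone, but it was set with earlier results of these data known.

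Polyadenylated RNA of primary macrophages, derived from bone marrow in culture, was sequenced in 2 groups of 3 libraries. Cells of wild-type C57BL/6J mice served as controls. The other group, labelled Txn1 KO, carried the Txn1 allele Txn1tm1.1Ees/J together with B6.129P2-Lyz2tm1(cre)lfo/J, Cre inserted in Lyz2, a gene of myeloid cells. Both groups came from the C57BL/6J background and from pooled male and female mice. No treatment or age is given in the labels, and a group with Cre but without the Txn1 allele was not analysed here.

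Values are normalized counts, that is reads divided by 1 size factor per library, over 22508616 to 38726953 reads per library. A gene was called changed at a Benjamini-Hochberg adjusted p under 0.05 in limma's two-sided test, run over all 13977 genes with a mean of at least 10. The labels do not say whether the 3 libraries of a group came from separate animals or cultures, so the p-values reflect the spread among these 6 samples, and that spread may be technical. Txn1 itself had 12580 ± 532 normalized counts in the controls and 12349 ± 367 in those labelled Txn1 KO (SD, n = 3 each; log2 difference -0.03, limma adjusted p = 0.686). This is a sum over the whole gene, which can hold reads outside the deleted part. Reads in the deleted part are not given, and how complete the deletion was, was not tested. Lyz2 had 364408 ± 3550 and 3118 ± 1281 and so followed the labels. Of 8 macrophage markers 7 were measured, and their summed level was 137630 to 141318 in the controls and 134823 to 135519 in the other group. Wild-type library 1 and Txn1 KO library 3 stood apart by liver transcripts. Alb was at 643 and 580.0 normalized counts there and at most 0.838 elsewhere. Ttr was at 74.4 and 59.2 there and at most 0.838 elsewhere, and Fgb and Fabp1 were at 0 elsewhere. Of 12 liver markers 6 were measured, and the remaining ones, Trf (1398 to 1521) and Apoa2 (13.2 to 26.5), did not set these libraries apart. All 10 stromal markers were measured, 7 of them lower, and their sum was 2607 to 2927 in wild type against 1211 to 2136. Neutrophil markers (5 of 8 measured) summed to 291 to 316 against 256 to 297, T cell markers (2 of 7) to 232 to 276 against 146 to 190, and B cell markers (2 of 6) to 578 to 632 against 539 to 612. The 6 erythroid markers were not among the genes tested. In such bulk libraries fewer cells of a type and less RNA per cell cannot be told apart, and the part of these other cells in the results was not tested.

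Chaperones help other proteins to fold, keep unfolded chains from clumping and hand damaged ones to degradation. HSP70 proteins bind short stretches of unfolded chain under the control of J proteins, which deliver clients and trigger ATP use, and of exchange factors, which release them. HSP90 dimers act later, on nearly folded clients such as kinases and steroid receptors, with cochaperones that set the pace of the cycle. The ring TRiC (also CCT) folds actin and tubulin, while mitochondria have an HSP70 and a chaperonin of their own. Heat shock factor 1 (HSF1) raises the transcription of many of these genes when unfolded protein accumulates. In macrophages, chaperones are also known for their part in the response to heat, infection and oxidants. Thioredoxin 1, the product of Txn1, reduces disulfide bonds of cytosolic proteins.

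All 76 genes passed the minimum level. In cells labelled Txn1 KO 12 were called higher and 8 lower, and 56 were not called. The called share was 26.3%, beside 21.5% of all genes tested (15.8% beside 11.5% higher, 10.5% beside 9.97% lower). The groups did not overlap for 29 members, 38.2%, beside 36.2% of all genes. These shares lie near the background, so the number of chaperone genes called is no result about them. The median log2 difference of the 76 was 0.01, on the scale log2(normalized count + 1), Txn1 KO minus wild type, and it was -0.0049 over all genes.

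The changes were small. None of the 20 called members changed 2-fold, 15 differed by 0.1 to 0.3 on the log2 scale, and 4 by 0.5 or more (Hspa1a, Dnajb4, Hspa1b and Dnajb13). The median size of a called difference was 0.25, beside 0.28 over all called genes. As a group the chaperones were well expressed: their median wild-type level was 1171 normalized counts, beside 552 over all genes tested, and only 6 lay under 50. Their summed level was 225456 ± 3266 in the controls and 232573 ± 2888 in those labelled Txn1 KO (SD, n = 3 each), a ratio of 1.03. Without both libraries with liver transcripts, 10 members were called higher and 4 lower, 13 of these 14 as in the full set (the exception, Dnajc7, was lower). Without Txn1 KO library 2 the number lower was 3, without wild-type library 1 it was 5 and without wild-type library 3 it was 4.

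**Figure D1:**
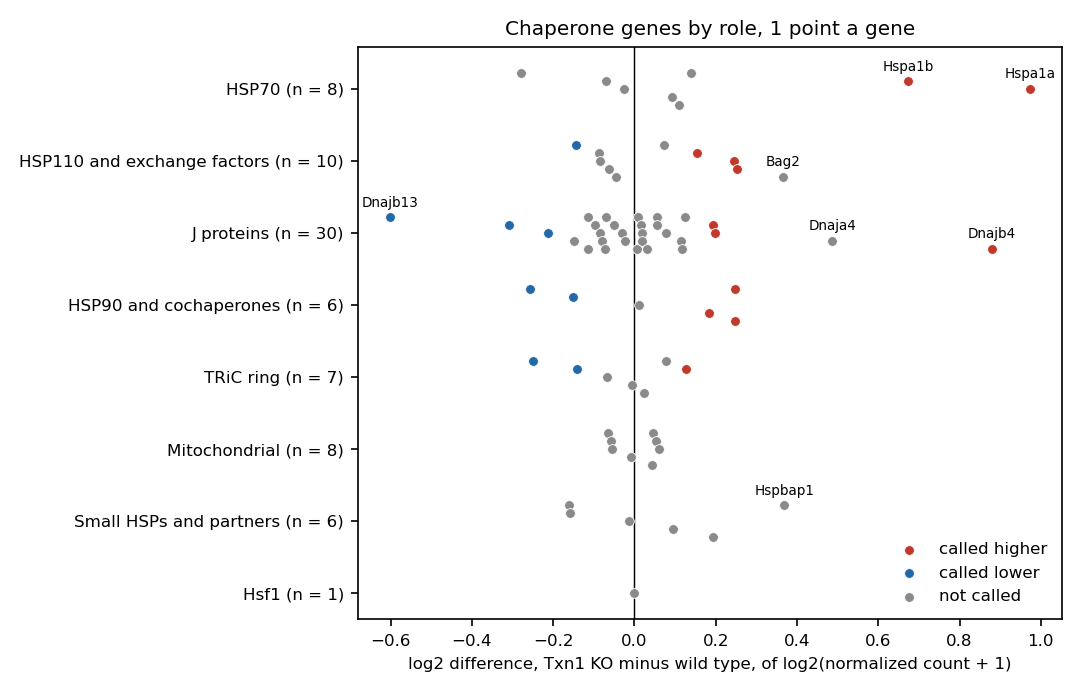
Each point is 1 of the 76 chaperone genes, placed by its log2 difference (x axis, Txn1 KO minus wild type, of log2(normalized count + 1)) within its role (y axis); red points were called higher, blue points lower and grey points not called. Most lie within 0.3 of 0, and the 3 red points beyond 0.6 are Hspa1a, Hspa1b and Dnajb4. The 8 genes listed as mitochondrial lie between -0.06 and 0.06.

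Among 8 HSP70 genes, 2 were called higher and 0 lower, 25.0% beside 21.5% of all genes, with a median log2 difference of 0.10. Both are the stress-inducible copies Hspa1a and Hspa1b, which are barely expressed in unstressed cells of many types. Hspa1a (ENSMUSG00000091971, chromosome 17, 34969190 to 34972156, minus strand, GRCm38) had 116, 109 and 125 normalized counts in the wild-type libraries and 225, 247 and 218 in those labelled Txn1 KO. All 3 of the latter lay above all 3 of the former. The level rose 1.97-fold, a log2 difference of 0.97 ± 0.12 (SE; 95% interval 0.72 to 1.22; limma adjusted p = 1.08e-05).

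Hspa1b (ENSMUSG00000090877, chromosome 17, 34956436 to 34959238, minus strand) had 59.1, 114 and 55.3 normalized counts in the controls and 128, 96.6 and 125 in those labelled Txn1 KO. Here the groups overlapped, since wild-type library 2 lay above Txn1 KO library 2. The log2 difference was 0.67 ± 0.23 (SE; limma adjusted p = 0.0452), a call that the count tests did not make (edgeR adjusted p = 0.0980, DESeq2 adjusted p = 0.0792). It was also lost without both libraries with liver transcripts (limma adjusted p = 0.380), without wild-type library 1 (limma adjusted p = 0.167), without wild-type library 3 (limma adjusted p = 0.220), without Txn1 KO library 1 (limma adjusted p = 0.141) and without Txn1 KO library 3 (limma adjusted p = 0.0836).

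The pair are near-identical copies, so how reads were split between them is uncertain. Their coding sequences, of 1923 and 1926 bases, shared 1915 bases, 99.4%, whereas Hspa1a and the constitutive Hspa8 were 73.9% identical. Summed, the pair had 175, 223 and 180 normalized counts in the controls and 352, 344 and 343 in those labelled Txn1 KO, and these sums did not overlap. The promoters are alike too, at 247 of 250 bases. They are shown from RefSeq (GRCm38.p6), 250 bases up to the start of the gene on the minus strand, at chr17:34972157-34972406 for Hspa1a and chr17:34959239-34959488 for Hspa1b. They are shown because Hspa1a had the largest log2 difference of the 76 and Hspa1b is its copy. Capitals mark a pair of inverted HSF1 recognition units, GAANNTTC, that starts 104 bases before the start of transcription in both.
Hspa1a: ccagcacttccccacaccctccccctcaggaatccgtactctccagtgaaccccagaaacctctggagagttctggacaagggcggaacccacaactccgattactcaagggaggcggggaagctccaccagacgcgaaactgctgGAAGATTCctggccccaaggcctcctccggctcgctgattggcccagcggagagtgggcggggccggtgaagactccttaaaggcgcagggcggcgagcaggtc
Hspa1b: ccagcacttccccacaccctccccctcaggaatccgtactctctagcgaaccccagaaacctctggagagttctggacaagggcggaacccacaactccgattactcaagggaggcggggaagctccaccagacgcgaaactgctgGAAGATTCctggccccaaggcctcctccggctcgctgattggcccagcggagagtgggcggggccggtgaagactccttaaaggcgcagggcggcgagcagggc

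The constitutive HSP70, Hspa8 (HSC70; chromosome 9, 40800984 to 40810087), had 38505, 38362 and 38441 normalized counts in the controls and 37174, 37252 and 35427 in those labelled Txn1 KO. The groups did not overlap, but the log2 difference of -0.07 (95% interval -0.14 to -0.0032) was not called (limma adjusted p = 0.135). Hspa8 stood at 331 ± 22.5 times the level of Hspa1a in the controls and at 160 ± 7.63 times in the other group (SD, n = 3 each). Hspa1a and Hspa1b made up a small part of the HSP70 transcripts in every library: all 8 genes summed to 41121 ± 96.2 and 39539 ± 1037 normalized counts. Hspa2, best known from the testis, had 399 ± 34.7 and 329.6 ± 43.2 normalized counts, with overlapping groups (log2 -0.28, limma adjusted p = 0.0595). Hspa14, a ribosome-linked HSP70, and Hspa13, of the endoplasmic reticulum, did not overlap between groups and were not called (log2 0.09 and 0.11). Hspa12b, an endothelial relative, and the testis form Hspa1l were near the lower end of detection, at 19.4 ± 10.1 and 23.5 ± 1.85 in wild type, where 3 reads are 2.33 to 4.04 normalized counts.

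**Figure D2:**
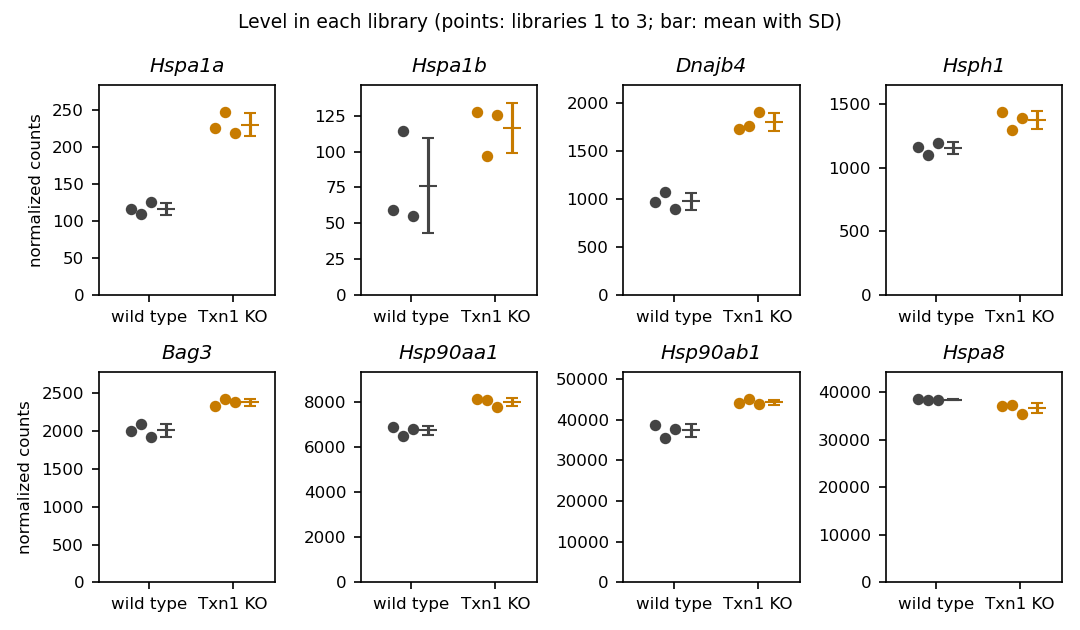
Normalized counts (y axis, from 0, scaled per gene) of 8 chaperone genes in the 3 wild-type and the 3 Txn1 KO libraries (points), with the mean and SD of each group beside them. Hspa1a rose 1.97-fold and Dnajb4 1.84-fold, Hsph1, Bag3, Hsp90aa1 and Hsp90ab1 rose by 18.5% to 19.2%, the Hspa1b groups overlap, and Hspa8 lies slightly lower in the Txn1 KO libraries.

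Exchange factors release the client from HSP70. Of 10 such genes 3 were called higher and 1 lower, 40.0% beside 21.5% of all genes, with a median log2 difference of 0.01. Bag3 (ENSMUSG00000030847, chromosome 7, 128523616 to 128546981, plus strand), a stress-induced factor that steers clients to autophagy, had 1994, 2094 and 1924 normalized counts in the controls and 2328, 2416 and 2383 in those labelled Txn1 KO. All 3 of the latter were higher, and the log2 difference was 0.25 ± 0.044 (SE; limma adjusted p = 0.000505). Hsph1 (HSP110; chromosome 5, 149614287 to 149636376) had 1162, 1104 and 1196 against 1439, 1299 and 1389, again without overlap (log2 0.25 ± 0.053, limma adjusted p = 0.00226). Hspa4, another HSP110 protein, rose from 5478 ± 198 to 6097 ± 234 (log2 0.15, limma adjusted p = 0.00891, and 0.13 at limma adjusted p = 0.0503 without wild-type library 2).

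The exchange factor that fell was Hspbp1, which also restrains the ubiquitin ligase CHIP. It had 2095, 1960 and 2011 normalized counts in the controls and 1843, 1752 and 1899 in those labelled Txn1 KO (log2 -0.14, limma adjusted p = 0.0351). Its groups did not overlap, but the call was lost without both libraries with liver transcripts (limma adjusted p = 0.0633) or without any of wild-type libraries 1 and 3 and Txn1 KO libraries 1 and 2 (limma adjusted p = 0.127, 0.0935, 0.0743 and 0.155). Bag6, which guards tail-anchored and mislocalized membrane proteins, went from 6774 ± 214 to 6386 ± 98.7 without overlap and was not called (log2 -0.08, limma adjusted p = 0.103). Bag1, the abundant partner of HSP70 at the proteasome, had a log2 difference of -0.09 and Bag2, an inhibitor of CHIP, one of 0.37. Neither was called. Bag4, Bag5 and Hspa4l lay between -0.06 and 0.07.

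J proteins stimulate the ATPase of HSP70 and choose its clients. Of 30 outside the mitochondrion 3 were called higher and 3 lower, 20% beside 21.5% of all genes, with a median log2 difference of 0.01. Their groups did not overlap for 33.3%, beside 36.2% of all genes. Dnajb4 (ENSMUSG00000028035, chromosome 3, 152178511 to 152210302, minus strand), a cytosolic partner of HSP70 that is closely related to Dnajb1, had the smallest p of all 76 members. It had 966, 1073 and 898 normalized counts in the controls and 1730, 1763 and 1906 in those labelled Txn1 KO. The groups lay far apart, and the level rose 1.84-fold (log2 0.88 ± 0.062, 95% interval 0.75 to 1.01, limma adjusted p = 1.46e-08). Its relative Dnajb1 (HSP40) was not called. It had 1214, 1265 and 1202 against 1162, 1209 and 1128, with overlapping groups (log2 -0.07, 95% interval -0.18 to 0.03).

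Dnajc10, a disulfide reductase of the endoplasmic reticulum with thioredoxin-like domains, rose from 2219 ± 57.9 normalized counts to 2537 ± 62.6 (log2 0.19 ± 0.041, limma adjusted p = 0.00245). All 3 libraries labelled Txn1 KO lay above all 3 of wild type. Dnajb14, a J protein of the membrane of the same compartment, had 3295, 3272 and 3402 against 3598, 3801 and 4052 (log2 0.20, limma adjusted p = 0.00318). Its longest transcript shares stretches of at least 100 bases, at 95% identity or more, with 133 other genes, so its value is uncertain. The rule for members leaves out only the main chaperones of the endoplasmic reticulum. From background knowledge, with earlier results of these data known, 8 members were listed for that compartment (Hspa13, Dnajb12, Dnajb14, Dnajc1, Dnajc10, Dnajc14, Dnajc16 and Dnajc18). Of these 2 were called higher and 1 lower, 37.5% beside 21.5% of all genes, with a median of 0.11. For 6 of the 8 the groups did not overlap, 75.0% beside 36.2%. DESeq2, and limma without both libraries with liver transcripts, called 2 higher and 0 lower. The list is short and need not be complete, so its counts are a description. Dnajc25, which may also belong there, is not on it and was not called (log2 0.06, overlapping groups).

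The 3 J proteins that fell each lost their call when certain single libraries were left out. Dnajb13, a protein of cilia and flagella, had 91.7, 90.9 and 121 normalized counts in the controls and 64.9, 60.3 and 72.7 in those labelled Txn1 KO (log2 -0.60 ± 0.17, limma adjusted p = 0.0203). Its groups did not overlap, and its call was lost without Txn1 KO library 2 (limma adjusted p = 0.0691), wild-type library 3 (limma adjusted p = 0.139) or both libraries with liver transcripts (limma adjusted p = 0.0538). Its exons overlap those of Ucp2 on the opposite strand, at 24230 ± 1345 and 25815 ± 1300 normalized counts, and since the sources used here do not say whether reads were counted by strand, the value of Dnajb13 is uncertain. Dnajc12, a partner of HSP70 for the aromatic amino acid hydroxylases, fell from 365 ± 29.6 to 295 ± 26.9 (log2 -0.31, limma adjusted p = 0.0264). That call was lost without wild-type library 2 (limma adjusted p = 0.136), Txn1 KO library 1 (limma adjusted p = 0.119), Txn1 KO library 2 (limma adjusted p = 0.0570) or both libraries with liver transcripts (limma adjusted p = 0.0542). Dnajc18 had 656, 646 and 633 against 537, 549 and 585 (log2 -0.21, limma adjusted p = 0.0255). DESeq2 did not call it (adjusted p = 0.0516), nor did limma without any one of wild-type libraries 1, 2 and 3 or Txn1 KO libraries 1 and 2 (adjusted p from 0.0623 to 0.0944).

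The 24 J proteins not called ranged from -0.15 (Dnajc4) to 0.49 (Dnaja4). Dnaja4, an HSF1-inducible type, was scarce, at 18.3, 25.6 and 39.4 normalized counts in the controls and 44.1, 46.9 and 25.6 in those labelled Txn1 KO, so the overlap leaves a wide interval of -0.20 to 1.17. The abundant Dnaja1 and Dnaja2, general partners of HSC70, had log2 differences of 0.05 and 0.01. Dnajb6, which suppresses the aggregation of polyglutamine proteins, had 4753 ± 135 and 4819 ± 237 normalized counts (log2 0.02), and Dnajc5, the cysteine string protein of vesicles, 3818 ± 190 and 3859 ± 68.5. Dnajc13, which works on endosomes, and Dnajc7, which holds clients between HSP70 and HSP90, had -0.10 and -0.09. Dnajc2, which sits on the ribosome, did not overlap between the groups (1375 ± 48.8 and 1271 ± 21.9, log2 -0.11, limma adjusted p = 0.111).

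HSP90 and its cochaperones went both ways. Of 6 members 3 were called higher (both cytosolic HSP90 genes and Chordc1), 2 lower (Fkbp4 and Ahsa1) and 1 was not called (Stip1). The called share was 83.3%, beside 21.5% of all genes, in a group of only 6. Hsp90ab1 (ENSMUSG00000023944, chromosome 17, 45567775 to 45573271, minus strand), the constitutive form, had 38744, 35482 and 37756 normalized counts in the controls and 44072, 44981 and 43740 in those labelled Txn1 KO. Hsp90aa1 (ENSMUSG00000021270, chromosome 12, 110690605 to 110702728, minus strand), the inducible form, had 6893, 6496 and 6795 against 8108, 8060 and 7785. For both genes all 3 libraries labelled Txn1 KO lay above the wild-type ones. The log2 differences were 0.25 ± 0.035 for each (SE; limma adjusted p = 6.26e-05 and 5.89e-05).

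The ratio of Hsp90ab1 to Hsp90aa1 was 5.55 ± 0.080 in the controls and 5.54 ± 0.096 in those labelled Txn1 KO (SD, n = 3 each). Their coding sequences are 75.3% identical. Per kilobase of exon, Hsp90ab1 was the most abundant of the 76 members in wild type, at 12447 normalized counts, ahead of Hspa8 at 8937 and Bag1 at 2726. The ratio of Hsp90ab1 to Hspa8 went from 0.971 ± 0.042 to 1.21 ± 0.025, and these ranges did not overlap.

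The cochaperone Chordc1, a zinc-binding partner of HSP90, rose from 1537 ± 72.9 normalized counts to 1744 ± 51.7 (log2 0.18, limma adjusted p = 0.0114). The call was lost without wild-type library 1 (limma adjusted p = 0.0530) and without both libraries with liver transcripts (limma adjusted p = 0.105). Fkbp4 (FKBP52; ENSMUSG00000030357, chromosome 6, 128429735 to 128438677, minus strand), a prolyl isomerase of steroid receptor complexes, had 2323, 2141 and 2146 in the controls and 1810, 1851 and 1864 in those labelled Txn1 KO. All 3 of the latter were lower (log2 -0.26 ± 0.045, limma adjusted p = 0.000424). Ahsa1, which speeds the ATPase of HSP90, had 7077, 6695 and 6963 against 6139, 6337 and 6199, also without overlap (log2 -0.15, limma adjusted p = 0.00449). Stip1 (HOP), which bridges HSP70 and HSP90, had 2745 ± 55.4 and 2769 ± 29.0 (log2 0.01, 95% interval -0.07 to 0.09).

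TRiC is a double ring of different subunits that fold together as 1 machine, and 7 of its subunit genes are members. Of these 2 were called lower, 1 higher and 4 not, so that 42.9% were called, beside 21.5% of all genes. Cct4 (ENSMUSG00000007739, chromosome 11, 22990519 to 23003780, plus strand) had 4106, 4245 and 4208 normalized counts in the controls and 3551, 3554 and 3461 in those labelled Txn1 KO. The groups did not overlap (log2 -0.25 ± 0.036, limma adjusted p = 6.83e-05). Cct5 fell from 4470.0 ± 146 to 4054 ± 239 (log2 -0.14, limma adjusted p = 0.0284). Its call was lost without both libraries with liver transcripts (-0.09, limma adjusted p = 0.209) and without wild-type library 1, wild-type library 3, Txn1 KO library 2 or Txn1 KO library 3 (limma adjusted p = 0.0773, 0.135, 0.0629 and 0.1096). Cct3 rose from 3889 ± 82.3 to 4249 ± 157 (log2 0.13, limma adjusted p = 0.0253) and lost its call without wild-type library 1, wild-type library 2 or Txn1 KO library 1 (limma adjusted p = 0.0536, 0.0910 and 0.139).

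The remaining ring genes Cct8, Cct7, Cct2 and Tcp1 had log2 differences of 0.08, 0.02, -0.01 and -0.07, none called. Cct6a, which the rule does not take in, had one of 0.02. The summed level of the 7 was 31659 ± 674 in the controls and 31073 ± 932 in those labelled Txn1 KO, a ratio of 0.982. Within that sum Cct4 took 13.2% ± 0.44 in the controls and 11.3% ± 0.22 in the other group, while Cct3 took 12.3% ± 0.073 and 13.7% ± 0.20 and Cct8 15.5% ± 0.089 and 16.7% ± 0.28 (SD, n = 3 each). Cct2 lies 0.214 Mb from Lyz2, where Cre was inserted, and Dnajc25, at a log2 difference of 0.06, lies 1.04 Mb from Txn1.

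**Figure D3:**
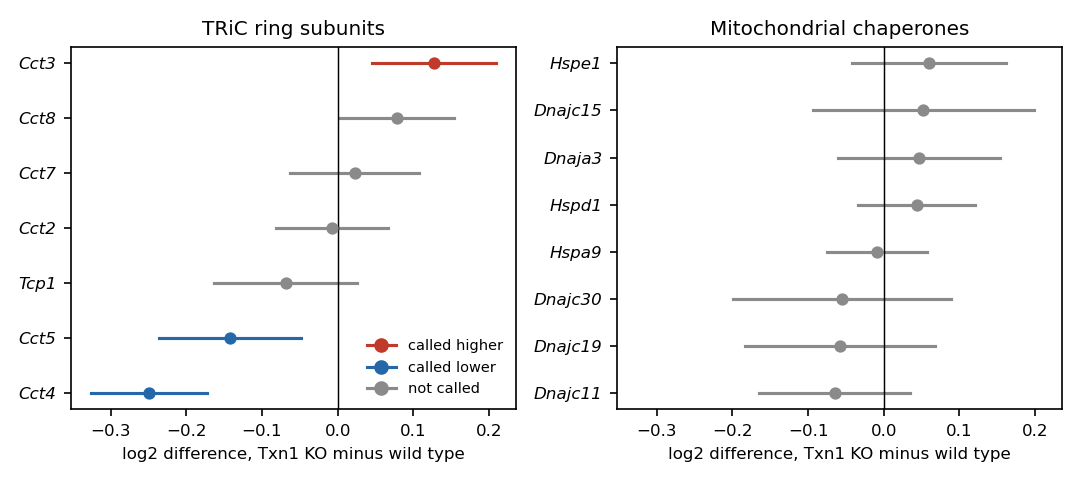
Log2 difference (x axis, Txn1 KO minus wild type, of log2(normalized count + 1)) with its 95% interval for the 7 TRiC genes (left) and the 8 mitochondrial chaperone genes (right). The intervals of Cct4 and Cct5 lie below 0 and those of Cct3 and Cct8 above it (Cct8 was not called), whereas every mitochondrial interval includes 0.

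The 8 members listed as mitochondrial chaperones did not differ beyond the test's threshold. That list need not be complete, since every J protein not named on it was placed with the other J proteins. The counts hold for these 8 alone. Of 8 genes limma called 0, beside 21.5% of all genes, and edgeR and DESeq2 called 0 too. An unadjusted limma p under 0.05 was found for 0 of them. Groups that did not overlap were also found for 0, beside 36.2% of all genes. The log2 differences ran from -0.06 to 0.06. Hspa9 (mortalin), the HSP70 of the matrix, had 9219, 9202 and 9132 normalized counts in the controls and 9083, 9264 and 9044 in those labelled Txn1 KO. Its interval was -0.08 to 0.06 around a log2 difference of -0.01. Hspd1 (HSP60; chromosome 1, 55077835 to 55088243, minus strand) and Hspe1 (HSP10; chromosome 1, 55088132 to 55091307, plus strand) form the chaperonin and are transcribed head to head. Hspd1 had 4118, 4271 and 4098 against 4345, 4338 and 4187, and Hspe1 had 2876, 2547 and 2577 against 2847, 2688 and 2793. Both pairs of groups overlapped (log2 0.04, interval -0.03 to 0.12, and log2 0.06, interval -0.04 to 0.16).

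The ratio of Hspd1 to Hspe1 was 1.57 ± 0.12 and 1.55 ± 0.060. The J proteins Dnaja3 (TID1), Dnajc15 and Dnajc19 of the import motor, Dnajc11 of the cristae and Dnajc30 lay between -0.06 and 0.05. A list of 9 other mitochondrial chaperones and proteases held Trap1, Grpel1, Grpel2, Hscb, Clpb, Clpp, Clpx, Lonp1 and Timm44. Limma, edgeR and DESeq2 called 0 of these too, where limma called 21.5% of all genes. An unadjusted limma p under 0.05 was found for 1, and the log2 differences ran from -0.10 to 0.14. Unlike in the members above, groups that did not overlap were found for 4 of the 9, 44.4% beside 36.2% of all genes.

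Small heat shock proteins hold unfolding proteins in assemblies without using ATP. The 6 members with such names, 2 of which are not small heat shock proteins in the strict sense (Hspb11, of the cilium, and Hspbap1, a binding partner), were low. Limma, edgeR and DESeq2 called 0 of them, where limma called 21.5% of all genes, and 1 (Hspbap1) had an unadjusted limma p under 0.05. Hspb1 (HSP25) had 34.6, 12.4 and 21 normalized counts in the controls and 20.9, 21.1 and 20.2 in those labelled Txn1 KO, so the latter lay within the wild-type range. Hspb7 and Hspb9 were at 15 ± 0.68 and 10.7 ± 2.08 in wild type, and their intervals were wide (-0.56 to 0.95 and -0.89 to 1.08). Hspb6, of muscle, was at 103 ± 8.47. Hspbap1 went from 115 ± 14.3 to 149 ± 21.9, with overlap by a narrow margin (log2 0.37, interval 0.06 to 0.68, limma adjusted p = 0.0882).

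Hsf1 itself (ENSMUSG00000022556, chromosome 15, 76477422 to 76501913, plus strand) had 770.3, 815 and 785 normalized counts in the controls and 816, 795 and 756 in those labelled Txn1 KO. The groups overlapped fully (log2 -0.0020, interval -0.12 to 0.12). The activity of the factor is set by trimer formation and modification of the protein, which transcript levels do not show. Of the related genes Hsf2 rose from 507 ± 6.23 to 599 ± 9.02 (log2 0.24, limma adjusted p = 0.0121, and 0.0626 without both libraries with liver transcripts), while Hsf4 and Hsbp1, which binds HSF1 trimers, had 0.07 and 0.01.

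A list of 23 textbook targets of HSF1 held 9 genes called higher, 39.1% beside 11.5% of all genes, and 2 lower, 8.70% beside 9.97%. The median log2 difference was 0.05, beside -0.0049 over all genes. Of the 23, 19 are chaperone members and hold all 11 calls: Hspa1a, Hspa1b, Dnajb4, Hsph1, Bag3, Hsp90aa1, Hsp90ab1, Chordc1 and Hspa4 were higher, Fkbp4 and Ahsa1 lower. The other 57 members held 3 called higher and 6 lower, with a median of -0.01. Since the list was drawn up with earlier results of these data known, its counts are a description. Without both libraries with liver transcripts 7 of the 19 were called higher and 2 lower, and 3 and 2 of the other 57. The 8 members not called include the heat-induced Dnajb1, Dnaja1, Hspd1, Hspe1 and Hspb1, and the constitutive Hspa8. Dnaja4, named above as HSF1-inducible, is not on the list and counts among the 57 (log2 0.49, not called). The ubiquitin gene Ubb had 0.05, and Serpinh1, the collagen chaperone of stromal cells, had 205, 138 and 152 normalized counts against 110, 162 and 88.8 (not called).

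The HSF1 recognition sequence is a row of inverted GAA units, each 2 bases from the next. RefSeq promoter windows of 300 bases, 250 before to 50 after the start (GRCm38.p6), matched 62 of the 76 members, with 80 promoters. On both strands, GAANNTTC or TTCNNGAA was found in 20 of the 80, 25.0%, beside 15.1% of all 32851 promoters. A run of 3 units in alternation (GAANNTTCNNGAA or TTCNNGAANNTTC), which holds both of the shorter motifs, was found in 7 of the 80, 8.75%, beside 0.603%. By gene, 18 of the 62 members held the pair of units, 29.0% beside 17.0% of all 27025 genes with a promoter. A run of 3 was held by 5, 8.06% beside 0.662%. No window was matched for Hsp90aa1, Hsp90ab1, Cct4 and Hspa8, among others. Of the 10 called higher with a promoter 7 held the pair and 2 held a run of 3 (Hsph1 and Chordc1). Those 7 count Hspa1a and Hspa1b separately, although their promoters are near-identical. Of 5 called lower 2 held the pair and 0 a run, and of 47 not called 9 held the pair and 3 a run (Hspd1, Hspe1 and Dnajb6). The genes with runs were thus found both among those called higher and among those not called.

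Stretches of 30 bases around the match are shown for 4 genes called higher and 2 not called, so that their motifs can be set side by side, with the units in capitals. They lie at chr5:149636280-149636309 (Hsph1, minus strand), chr9:18292259-18292288 (Chordc1, plus), chr3:152193841-152193870 (Dnajb4, minus, at an internal start of the gene), chr7:128523603-128523632 (Bag3, plus), chr1:55088053-55088082 (Hspe1, plus, in the region shared with Hspd1) and chr5:29735843-29735872 (Dnajb6, plus).
Hsph1: tgctgcagaTTCTGGAAAGTTCtcctcagt
Chordc1: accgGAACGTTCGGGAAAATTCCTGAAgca
Dnajb4: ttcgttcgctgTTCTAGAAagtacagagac
Bag3: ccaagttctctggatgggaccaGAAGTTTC
Hspe1: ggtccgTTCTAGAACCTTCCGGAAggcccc
Dnajb6: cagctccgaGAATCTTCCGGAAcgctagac
Hsph1, Chordc1, Hspe1 and Dnajb6 show runs of at least 3 units, with log2 differences of 0.25, 0.18, 0.06 and 0.02. Dnajb4 and Bag3 show the pair alone, with 0.88 and 0.25. A match describes the letters in this window and is no measurement of binding.

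Other genes of the pathway were taken from lists of 45 chaperone partners that are no members, of which 43 were measured. There 3 were called higher and 5 lower, 18.6% beside 21.5% of all genes. Among 21 cochaperones of HSP90 and HSP70, Ptges3 (p23), which holds the closed form of HSP90, rose by 0.15 on the log2 scale and Rpap3 by 0.27. Those that fell included Cdc37, which brings kinases to HSP90 (from 4855 ± 223 to 4020 ± 195, log2 -0.27, limma adjusted p = 0.000192), Pih1d1 (-0.24) and Unc45a (-0.21). Rpap3 and Pih1d1, partners in the R2TP complex, moved in opposite directions. Of these genes Cdc37 kept its call whichever single library was left out. The others lost theirs without wild-type library 3 (Rpap3, Ptges3, Pih1d1 and Unc45a; limma adjusted p = 0.0929, 0.0826, 0.178 and 0.123) and without both libraries with liver transcripts (limma adjusted p from 0.0562 to 0.155). Leaving out Txn1 KO library 1 ended the calls of Rpap3, Pih1d1 and Unc45a (limma adjusted p = 0.0550, 0.0933 and 0.0827), wild-type library 1 those of Rpap3 (limma adjusted p = 0.0531) and Pih1d1, and wild-type library 2 that of Ptges3 (limma adjusted p = 0.0514). Pih1d1 was not called without Txn1 KO library 2 (limma adjusted p = 0.0803), nor Ptges3 without Txn1 KO library 3 (limma adjusted p = 0.0763). Of 6 prefoldin genes, which deliver actin and tubulin to TRiC, only Pfdn5 was called, lower (-0.13, limma adjusted p = 0.0274). Its call was lost without wild-type library 1 (limma adjusted p = 0.130), Txn1 KO library 2 (limma adjusted p = 0.0900), Txn1 KO library 3 (limma adjusted p = 0.0551) or both libraries with liver transcripts (limma adjusted p = 0.167). Of 4 measured genes of TRiC and its phosducin-like partners limma, edgeR and DESeq2 called 0, and 2 had an unadjusted limma p under 0.05. Hsf2 was the remaining gene called. Without both libraries with liver transcripts 0 of the 21 cochaperones were called higher and 1 lower.

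**Figure D4:**
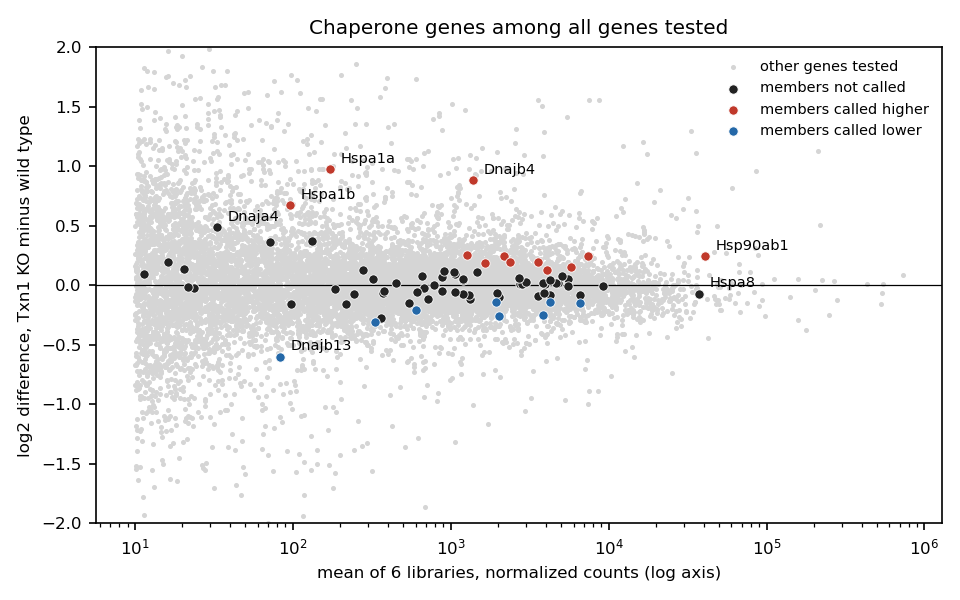
Log2 difference (y axis, Txn1 KO minus wild type) against the mean normalized count of the 6 libraries (x axis, log axis) for all genes tested (grey) and the chaperone genes (red called higher, blue called lower, black not called); 60 genes lie beyond the y range of -2 to 2. The chaperone genes lie within the cloud of all genes, between -0.60 and 0.97, and Hsp90ab1 and Hspa8 are the most abundant of them.

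Of the 19 called members followed through the alternative settings, 8 kept their direction and their call in all 17. These were Hspa1a, Dnajb4, Hsp90aa1, Hsp90ab1, Bag3 and Dnajc10, which were higher, and Fkbp4 and Cct4, which were lower. Their calls also held whichever single library was left out. The authors' deposited table gives a log2 fold change of 0.25 for Hsp90ab1 (adjusted p = 1.30e-10), of 0.25 for Hsp90aa1 (adjusted p = 1.57e-09) and of -0.25 for Cct4 (adjusted p = 2.84e-08). For these genes the values are the same to 2 decimals as those computed here from the same counts. By the authors' adjusted p, Hspa1b (log2 0.60, adjusted p = 0.0804) and Dnajc18 (log2 -0.21, adjusted p = 0.0530) were not called, unlike in limma here.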

How the data were processed

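PolyA-selected RNA of 6 libraries was measured. The submitters' processing notes name STAR 2.5.2b, Trimmomatic 0.36, bcl2fastq 2.20 and DESeq2, and the build GRCm38 (mm10). How reads were counted, whether by strand and on which annotation, is not stated in the sources used here. The deposited signal is a read count that the authors divided by 1 size factor per library, as 100% of the values are whole multiples of a step within 0.01 reads. The deposited log2 fold changes and adjusted p-values are the authors' own statistics.

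Computed here from the signal: the limma test (version 3.58.1, R 4.3.3; trended prior) of log2(value + 1) on 13977 genes with a mean of at least 10 (28 of 14005 left out), two-sided and with Benjamini-Hochberg adjustment over all of them. The design foresaw edgeR for raw counts; the values are normalized, so edgeR 4.0.16 and DESeq2 1.42.0 on the recovered reads are alternatives. Reads summed to 22508616 to 38726953 per library, and the floor of 3 reads covers counting error only. The fit was tested on simulated data. Positions are from GENCODE on GRCm38, identity between transcripts from BLAST 2.17.0, promoters from RefSeq.

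Members and lists were chosen with earlier results of these data known. Named by rule were the called members with the smallest p, up to 10 in each direction, 15 fixed key genes where listed, the most abundant member of each role and each called gene of the other lists; further members, Cct3 among them, complete the roles and were chosen after their values were seen. From the other lists, a few genes are not reported here. Control columns name only the cells and a number and were taken as wild type, the only other group. Alternatives were other thresholds, pseudocounts (0.5 and 5), filters (none, and a mean of 50), priors and count tools, the authors' statistics, leaving out each library or both with liver transcripts, and the replicate number as a block.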

Additional observations from a re-analysis of the deposited data

How the results depend on the processing

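Over all genes, 3001 were called; limma without the trended prior called 1525 and an adjusted p under 0.01 left 1833. Chaperone genes called higher (12) numbered 6 without the trend and 9 to 12 when 1 library was left out. Those called lower (8) numbered 2 without the trend, 3 at an adjusted p under 0.01, 4 without both libraries with liver transcripts, and 3 to 8 when 1 library was left out. The median log2 difference of the members was 0.011; it was 0.027 without both libraries with liver transcripts and -0.0049 to 0.021 when 1 library was left out, so its sign is not settled. EdgeR, DESeq2 and the authors' statistics gave 11 members higher and 8, 7 and 7 lower. None of the 20 called members changed direction in any of the 17 alternatives. Of the 12 members not called that were followed through the alternatives, 4 with differences near 0 turned positive. Without both libraries with liver transcripts these were Cct2 (0.0016), Hsf1 (0.010), Hspa9 (0.00093) and Hspb1 (0.35). With 1 library left out Cct2 ranged from -0.026 to 0.0067, Hsf1 from -0.026 to 0.028 and Hspb1 from -0.37 to 0.34. The causes were not tested. Same-numbered libraries correlated at -0.27, 0.14 and -0.33 in their deviations from the group means. Wild-type library 1 and Txn1 KO library 3, both with liver transcripts, correlated at 0.43. The deviations of a group sum to 0, so these values cannot decide whether the samples are paired or share a batch. With the replicate block 2675 genes were called, and 11 members were higher and 8 lower; the median was 0.011, and Hspa1b lost its call (limma adjusted p = 0.0609). Depth limits the scarce members: 6 lay under 50 normalized counts in wild type.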
